A study of Homo sapiens with 14 samples.

Results

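Chromatin immunoprecipitation followed by sequencing mapped GLTSCR1 and the SS18::SSX fusion protein in HS-SY-II, a human synovial sarcoma cell line, after 12 h of WA-68, a PROTAC that directs BRD9 to degradation, at 100 nM. The GLTSCR1 library was made with an antibody to GLTSCR1, and the fusion library with an anti-HA antibody to the tagged fusion; the labels give both a WT genotype, and how the tag was introduced is not given in the sources used here. These are 2 of the 14 libraries in the series, and the peak lists of 9 were analysed here. The lists for DMSO (vehicle), 24 h, 48 h and, for GLTSCR1, 96 h of the same dose serve below to place the 12 h regions, and the input libraries were not analysed here. After entries with the same coordinates had been joined and chromosomes 1 to 22, X and Y kept, the 12 h GLTSCR1 list held 16021 regions and the 12 h fusion list 28619, together 44640 of the 183499 regions in all 9 lists. A region was called shared when it overlapped a region of the other list by at least 1 bp, and otherwise alone. Each side was 1 library, so there was no replicate error to test the antibodies against each other, and p-values are not given. The 95% intervals are exact Clopper-Pearson intervals for counting error alone, and neighbouring regions are not independent. Read depth is unknown from the lists, and a region missing from a list was below the peak caller's threshold in that library. The lists do not measure how much BRD9 was left in the cells.

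GLTSCR1, the product of BICRA, and BRD9 are subunits that mark GBAF, a form of the BAF family of ATP-driven chromatin remodelling complexes. SS18 is a subunit of BAF and of GBAF, so SS18::SSX, the fusion that defines synovial sarcoma, can enter both; its SSX tail binds nucleosomes that carry the Polycomb mark on histone H2A. The 2 antibodies therefore read a subunit of GBAF and an oncoprotein that can sit in GBAF, in BAF or on Polycomb chromatin.

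Promoter sequences are given first for the genes that led each class of gene in this comparison; the region that ranked a gene did not always reach its promoter. A gene was counted with a protein when a region overlapped the 1 kb on either side of either end of its span. The 2 highest-ranked genes of each class that the RefSeq promoter table (GRCh38.p14) holds were RFX1 and H2AC4 for GLTSCR1 alone, NFATC1 and H2BC9 for both proteins, and CFAP46 and NUDT7 for the fusion alone. RFX1 encodes a winged-helix transcription factor, H2AC4 and H2BC9 encode replication-dependent histones, and NFATC1 encodes a calcium-responsive transcription factor. CFAP46 encodes a protein of motile cilia, and NUDT7 a peroxisomal coenzyme A hydrolase. Each sequence runs 5′ to 3′ on the strand of the gene, from 250 bases before its start to 50 after it. Capitals mark matches on either strand to the GC box GGGCGG, the CCAAT box CCAAT and the TATA box TATAAA; no other motif searched for matched in these 6. RFX1 is at chr19:14006271-14006570 (minus strand), H2AC4 at chr6:26033569-26033868 (minus), NFATC1 at chr18:79395680-79395979 (plus), H2BC9 at chr6:26251364-26251663 (plus), CFAP46 at chr10:132942521-132942820 (minus) and NUDT7 at chr16:77722264-77722563 (plus).
RFX1: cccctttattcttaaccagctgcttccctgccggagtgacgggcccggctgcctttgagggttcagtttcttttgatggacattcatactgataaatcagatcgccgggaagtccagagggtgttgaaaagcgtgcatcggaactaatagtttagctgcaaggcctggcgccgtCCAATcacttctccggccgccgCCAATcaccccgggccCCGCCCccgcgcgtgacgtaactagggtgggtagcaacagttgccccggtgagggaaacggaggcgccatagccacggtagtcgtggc
H2AC4: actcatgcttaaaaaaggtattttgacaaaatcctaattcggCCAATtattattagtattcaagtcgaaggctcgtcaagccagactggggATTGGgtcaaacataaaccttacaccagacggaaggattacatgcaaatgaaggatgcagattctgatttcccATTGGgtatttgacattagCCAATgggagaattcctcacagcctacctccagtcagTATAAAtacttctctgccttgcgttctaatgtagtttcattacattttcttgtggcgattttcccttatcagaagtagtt
NFATC1: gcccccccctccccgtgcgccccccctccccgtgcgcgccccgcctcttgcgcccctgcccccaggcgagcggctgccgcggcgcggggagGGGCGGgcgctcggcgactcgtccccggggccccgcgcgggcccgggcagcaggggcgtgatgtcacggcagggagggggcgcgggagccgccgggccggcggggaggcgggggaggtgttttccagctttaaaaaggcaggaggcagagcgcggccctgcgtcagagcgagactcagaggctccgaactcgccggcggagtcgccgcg
H2BC9: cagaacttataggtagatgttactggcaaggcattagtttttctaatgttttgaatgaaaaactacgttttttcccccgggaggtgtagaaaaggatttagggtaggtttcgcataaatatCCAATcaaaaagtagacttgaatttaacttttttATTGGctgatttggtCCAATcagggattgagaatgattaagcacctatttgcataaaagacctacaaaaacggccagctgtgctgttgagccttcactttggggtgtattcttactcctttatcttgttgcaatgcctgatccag
CFAP46: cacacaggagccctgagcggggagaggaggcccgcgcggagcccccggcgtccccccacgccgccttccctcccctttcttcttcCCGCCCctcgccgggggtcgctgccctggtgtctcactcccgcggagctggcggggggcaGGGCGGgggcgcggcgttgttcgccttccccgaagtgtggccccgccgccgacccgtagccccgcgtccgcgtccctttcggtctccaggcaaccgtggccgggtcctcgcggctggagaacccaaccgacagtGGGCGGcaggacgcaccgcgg
NUDT7: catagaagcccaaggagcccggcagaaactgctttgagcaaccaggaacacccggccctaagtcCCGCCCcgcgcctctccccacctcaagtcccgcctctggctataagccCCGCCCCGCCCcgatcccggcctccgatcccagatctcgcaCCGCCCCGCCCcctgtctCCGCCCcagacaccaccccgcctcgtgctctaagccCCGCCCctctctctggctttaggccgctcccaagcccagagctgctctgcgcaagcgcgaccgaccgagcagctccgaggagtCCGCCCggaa

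A 12 h GLTSCR1 region and no fusion region overlapped the printed RFX1, H2AC4 and H2BC9 promoters. A fusion region and no GLTSCR1 region overlapped those of NFATC1, CFAP46 and NUDT7, although NFATC1 and H2BC9 carried both proteins within 1 kb of their ends. The fusion regions whose folds ranked CFAP46 and NUDT7 did not reach the printed letters, which lay under other fusion regions. The GLTSCR1 region that ranked NFATC1 and the fusion region that ranked H2BC9 missed the printed letters too. The RFX1 promoter held 2 CCAAT boxes and 1 GC box at 59% G and C. H2AC4 had 4 CCAAT boxes and a TATA box at 39.3% G and C, and H2BC9 had 3 CCAAT boxes at 38%. The 3 promoters under a fusion region were richer in G and C, with 79.7% in NFATC1, 76% in CFAP46 and 69.3% in NUDT7, and held 1, 3 and 8 GC boxes in that order. A match is a description of these letters and not a site of binding.

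The 2 proteins met at 6498 loci. A fusion region overlapped 8840 of the 16021 GLTSCR1 regions, or 55.2% (95% interval 54.4 to 55.9), and a GLTSCR1 region overlapped 6930 of the 28619 fusion regions, or 24.2% (23.7 to 24.7). GLTSCR1 was alone in 7181 regions and the fusion in 21689. When overlapping regions of both lists were joined, 35368 loci resulted, of which 20.3% were GLTSCR1 alone, 18.4% held both and 61.3% were the fusion alone. The lists covered 11.1 Mb for GLTSCR1 and 36.4 Mb for the fusion, and 5.45 Mb were common, which was 49.0% of the GLTSCR1 bases and 15.0% of the fusion bases.

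Most shared GLTSCR1 regions lay within broader fusion regions. Of the shared GLTSCR1 regions, 5874 (66.4%) lay entirely inside a fusion region, while 970 of the shared fusion regions (14.0%) lay entirely inside a GLTSCR1 region. The median shared fusion region was covered by GLTSCR1 over 40.2% of its length. A total of 1409 fusion regions held 2 or more GLTSCR1 regions and took up 3739 of these; the reverse, a GLTSCR1 region with 2 or more fusion regions, occurred 310 times. The most crowded was a 32.6 kb fusion region at chr7:1218999-1251585 with 15 GLTSCR1 regions, at UNCX, a homeobox gene of the somites and nervous system. Next came a 25.2 kb region at chr15:58036235-58061448 with 13, at ALDH1A2, which encodes an enzyme that makes retinoic acid. A 19.9 kb region within LRP1B, which encodes a large lipoprotein receptor-related protein, at chr2:140578250-140598144 held 11.

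Summit distances follow in part from the definition of the classes, since shared regions overlap and regions alone do not, and no baseline was computed. Each distance runs to the nearest of all summits of the other list. Between strongest summits only, 22.4% of all GLTSCR1 regions and 12.5% of all fusion regions lay within 250 bp of the other list. The strongest summit of a shared GLTSCR1 region was a median of 145 bp (quartiles 68 and 253) from the nearest fusion summit, with 36.5% within 100 bp and 74.5% within 250 bp. For shared fusion regions the median was 165 bp (73 and 343), and 65.2% were within 250 bp. Regions without overlap were of unlike isolation. The nearest fusion summit was a median of 65.7 kb from a GLTSCR1 region alone, and the nearest GLTSCR1 summit a median of 10.8 kb from a fusion region alone. Within 10 kb lay a summit of the other list for 24.1% of GLTSCR1 regions alone and 48.6% of fusion regions alone.

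Shared fusion regions tended to be broader and stronger than fusion regions alone, whereas shared and unshared GLTSCR1 regions had nearly the same strength. Strength here is the authors' fold enrichment at the summit, compared within 1 list only, since fold depends on the depth and background of its library. GLTSCR1 regions alone had a median fold of 4.97 (quartiles 4.10 and 6.24), against 4.84 (4.00 and 6.22) for the shared ones. Their median width was 404 bp (307 and 612) against 517 bp (354 and 849). Fusion regions alone had a median fold of 4.37 (3.70 and 5.31), against 5.59 (4.17 and 8.47) for the shared ones, and a median width of 574 bp (395 and 979) against 1320 bp (575 and 3368). Of the 100 fusion regions with the highest fold, 5 were alone and 95 shared; of the 100 such GLTSCR1 regions, 21 were alone and 79 shared. Wide regions, over 5 kb, numbered 15 among GLTSCR1 regions alone, 74 among shared ones, 186 (0.858%) among fusion regions alone and 1019 (14.7%) among shared ones. A wide region meets another list more easily than a narrow one, and the part of width in these differences was not tested beyond the matching given below.

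**Figure D1:**
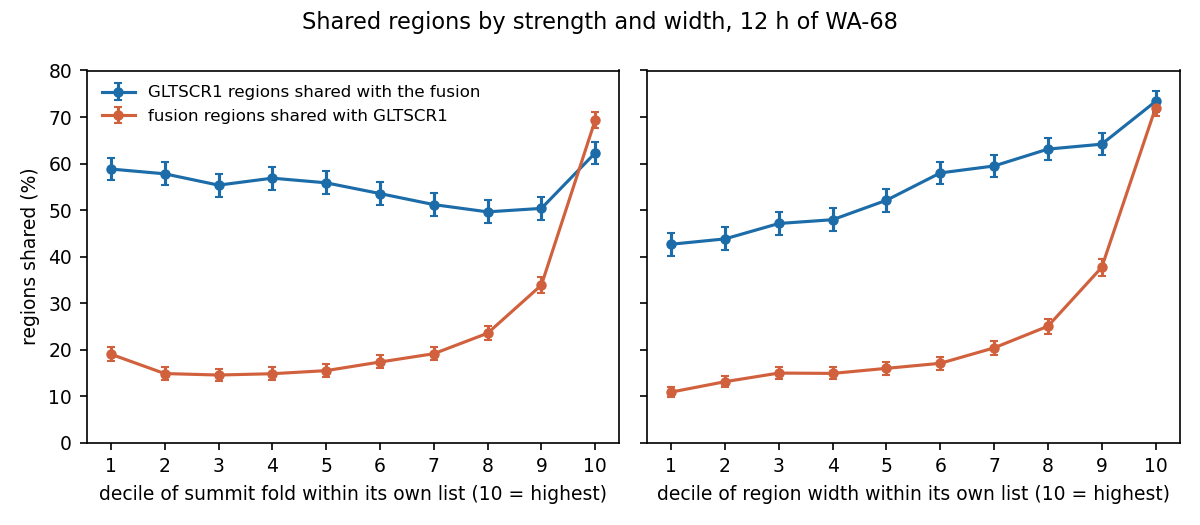
Share of regions that overlapped the other list (%, with 95% Clopper-Pearson intervals), by decile of summit fold (left) and of region width (right) within each list; blue, GLTSCR1 regions shared with the fusion, and red, fusion regions shared with GLTSCR1. The GLTSCR1 share stayed between 49.6% and 62.3% over the fold deciles, while the fusion share climbed to 69.3% in the highest decile of fold and 72.0% in the highest decile of width.

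By decile of fold, the GLTSCR1 share was 58.8% in the lowest, 49.6% in the eighth and 62.3% in the highest, so it had no steady order. The fusion share was 19.0% in the lowest decile, 14.6% in the third, 33.9% in the ninth and 69.3% in the highest. By width the GLTSCR1 share climbed from 42.7% in the narrowest decile to 73.3% in the widest, and the fusion share from 10.9% to 72.0%, as the plot of shares by decile shows.

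The 3 widest GLTSCR1 regions alone measured 24.0, 15.2 and 13.1 kb. The one of 15.2 kb lay on chromosome 8, and the other two at chr12:91266056-91290021 and chr12:91245526-91258651, 83.2 and 62.7 kb from DCN, which encodes the matrix proteoglycan decorin. Among shared GLTSCR1 regions they were 53.3 kb within DNM3, a dynamin gene, at chr1:172135266-172188604, 53.1 kb at ZIC4, a zinc-finger factor gene of the cerebellum, at chr3:147347216-147400321, and 50.9 kb at KERA, the gene of the corneal proteoglycan keratocan, at chr12:91029409-91080294. The widest fusion regions alone were 46.8 kb at chr18:79416991-79463743 and 21.0 kb at chr18:79474112-79495075, both within NFATC1, and 22.7 kb at RHOU, a small GTPase gene, at chr1:228627229-228649893. Among shared fusion regions they were 36.7 kb at chr10:132778441-132815185, over parts of CFAP46, INPP5A and the homeobox gene NKX6-2, and 32.6 kb at UNCX.

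The classes lay in different places relative to genes. Within 1 kb of an end of a protein-coding gene were 49.6% (48.5 to 50.8) of the GLTSCR1 regions alone, against 19.2% (18.4 to 20.0) of the shared ones. In the fusion list the order was opposite, with 12.9% (12.4 to 13.3) of the regions alone and 25.9% (24.9 to 27.0) of the shared ones at gene ends. The difference, alone minus shared, was 30.4 percentage points for GLTSCR1 and -13.0 for the fusion. Matched within deciles of region width it was 33.6 and -18.7 points, and within deciles of fold 30.4 and -18.3 points, so neither direction changed with width or fold. Read the other way, 32.3% (31.0 to 33.6) of GLTSCR1 regions at gene ends and 66.4% (65.5 to 67.3) of those elsewhere overlapped the fusion, and 39.1% (37.7 to 40.5) of fusion regions at gene ends and 21.4% (20.9 to 21.9) of those elsewhere overlapped GLTSCR1.

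**Figure D2:**
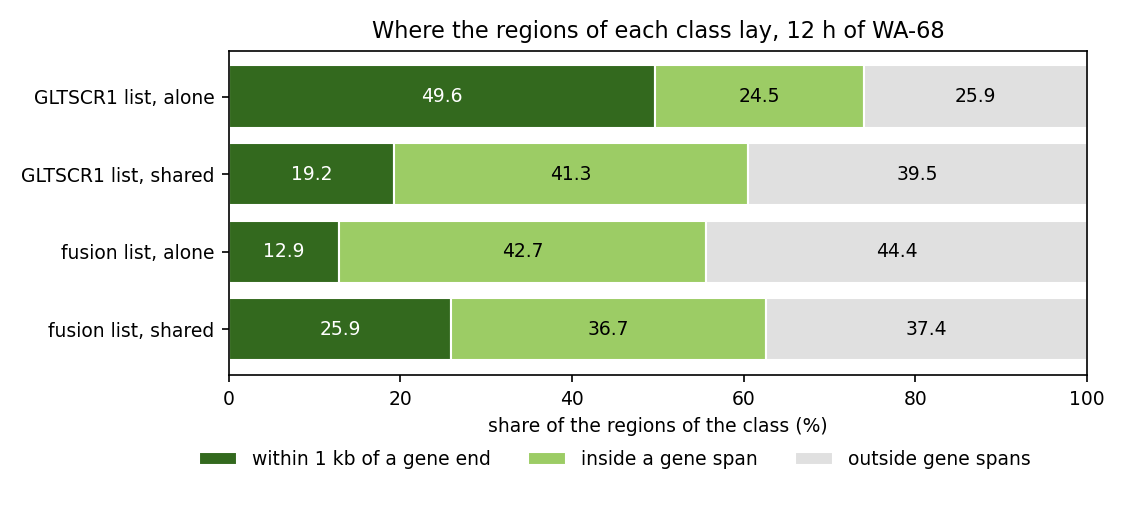
Share of the regions of each class (%) within 1 kb of a protein-coding gene end, inside a gene span away from its ends, or outside both, for the GLTSCR1 and fusion lists at 12 h. GLTSCR1 regions alone stood apart, with 49.6% at gene ends against 12.9% to 25.9% in the other 3 classes.

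Gene bodies held 24.5% of GLTSCR1 regions alone, 41.3% of the shared ones, 42.7% of fusion regions alone and 36.7% of the shared ones, counted inside a span and away from its ends. Outside spans and their ends lay 25.9%, 39.5%, 44.4% and 37.4% of the same 4 classes, as drawn in the plot of places. The promoter table, which gives gene starts for 15843 of the 20037 protein-coding genes, put 41.8% of GLTSCR1 regions alone within 1 kb of a start, against 13.6% of the shared ones, and 7.90% of fusion regions alone, against 18.2% of the shared ones. The strongest summit of a GLTSCR1 region alone was a median of 5.01 kb from the nearest start, against 66.2 kb for the shared ones. For fusion regions the medians were 73.8 kb alone and 51.3 kb shared. Summits within 1 kb of a start lay on both sides of it. Median offsets were downstream, at 108 bp for GLTSCR1 alone, 101.5 bp for GLTSCR1 shared, 139 bp for the fusion alone and 96 bp for the fusion shared. In that order, 44.2%, 45.6%, 41.0% and 43.2% of these summits were upstream. The distances and offsets cover 6881, 8335, 20518 and 6507 regions of these classes, without those on chromosome 8.

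Chromosomes differed in how much of GLTSCR1 was shared. The lowest shares were on chromosome 19 (37.7% of 565 regions), X (40.7% of 423) and 1 (44.4% of 1350), and the highest on 18 (67.2% of 430) and 10 (65.02% of 912). The fusion share ranged from 18.1% on chromosome 22 to 29.9% on chromosome 18, leaving aside Y, which had 6 GLTSCR1 and 21 fusion regions.

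At the level of genes, GLTSCR1 was more often at a gene end without the fusion than with it. A GLTSCR1 region lay at an end of 5321 of the 20037 protein-coding genes (26.6%) and a fusion region at an end of 3721 (18.6%). GLTSCR1 was alone at 3405 genes (17%), both proteins were at 1916 (9.56%), the fusion was alone at 1805 (9.01%), and neither was called at 12911 (64.4%). Of the genes with GLTSCR1, 36.0% (34.7 to 37.3) also had the fusion, and of the genes with the fusion, 51.5% (49.9 to 53.1) also had GLTSCR1. In 1678 of the 1916 genes with both (87.6%), at least 1 of the strongest GLTSCR1 region and the strongest fusion region at the gene end overlapped the other list. The strongest region overlapped the other list outside the window in 49 of the genes with GLTSCR1 alone (1.44%) and in 117 of those with the fusion alone (6.48%).

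Genes with GLTSCR1 alone and the highest GLTSCR1 fold were led by RFX1, whose region at chr19:14005774-14006541 had a fold of 42.0, the sixth highest of the list. GLTSCR1 folds at RFX1 were 38.1 in DMSO, 42.0 at 12 h, 31.6 after 24 h, 48.6 after 48 h and 32.7 after 96 h. The fusion was called there in DMSO (3.49) and after 48 h (4.41) and not at 12 or 24 h. Replication-dependent histone genes, which make the bulk of histone protein in S phase, followed: H2AC4, H2BC3, H3C2 and H3C3 share a region of 28.95 kb at chr6:26031259-26060208 with a fold of 33.9, H3C6 a region of 16.2 kb with 32.0, and H2BC4 had 25.2. GLTSCR1 was called at these histone genes in all 5 of its lists, and the fusion at all of them in DMSO except H2BC3. PPOX, which encodes a heme synthesis enzyme, and USP21, a deubiquitinase gene, share a region at chr1:161165412-161166676 with a fold of 32.2; neither had a fusion call in any list. MYADM, which encodes a membrane protein, had 32.5, BRD2, a BET bromodomain gene, 28.2 and TAGLN2, which encodes an actin-binding protein, 25.2. At MYADM, H3C6, BRD2, TAGLN2 and the first histone region, a fusion region overlapped the same GLTSCR1 region outside the 1 kb window, so the fusion was missing from these gene ends and not from the whole region.

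Genes with both proteins, ranked by the mean of their percentile ranks in the 2 lists, included 4 homeobox genes, MEIS1, IRX3, HOXB4 and HOXB6. NFATC1 had a GLTSCR1 fold of 16.2 and a fusion fold of 10.5, in a fusion region of 21.9 kb at chr18:79392468-79414322. H2BC9 had 18.0 for GLTSCR1 and 9.68 for the fusion, and KIF26A, an atypical kinesin gene, 10.5 and 12.8. MEIS1, which encodes a partner of HOX proteins on DNA, had 25.5 and 9.13 at its downstream end. IRX3, an Iroquois homeobox gene, had 14.9 and 9.45, and RHPN1 had 22.1 and 9.37. HOXB4 had 10.97 and 11.3, and HOXB6 had 11.3 and 10.6. All 8 were called in every GLTSCR1 and every fusion list.

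Genes with the fusion alone were led by CFAP46, with a fusion fold of 22.7 in the 36.7 kb region at its downstream end. Next were NUDT7 with 20.8 at chr16:77715383-77721922, EPHA3, which encodes a receptor of the ephrin guidance system, with 19.6 at chr3:89108404-89115495, and NDNF, the gene of a secreted neurotrophic factor, with 19.1. PAX6, the eye and brain homeobox gene, had 16.0, BMP3, a bone morphogenetic protein gene, 15.8, MAF, a bZIP factor gene, 14.4, and LOC124904333, within NFATC1, 14.2. No GLTSCR1 list had a call at the ends of CFAP46, NUDT7, BMP3 or LOC124904333. NDNF had GLTSCR1 in every list but that of 12 h, with folds of 7.39 in DMSO, 3.53 after 24 h, 5.32 after 48 h and 4.21 after 96 h. PAX6 had it in DMSO alone (4.73). MAF had it in DMSO (3.52), after 24 h (10.0) and after 48 h (14.3), and EPHA3 after 48 h (4.99) and 96 h (2.88). At NUDT7 the fusion folds were 3.86 in DMSO, 20.8 at 12 h and 3.74 after 24 h, with no call after 48 h. GLTSCR1 regions overlapped the fusion regions of CFAP46, NDNF, PAX6, BMP3 and MAF outside the windows, and none overlapped those of NUDT7, EPHA3 and LOC124904333.

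**Figure D3:**
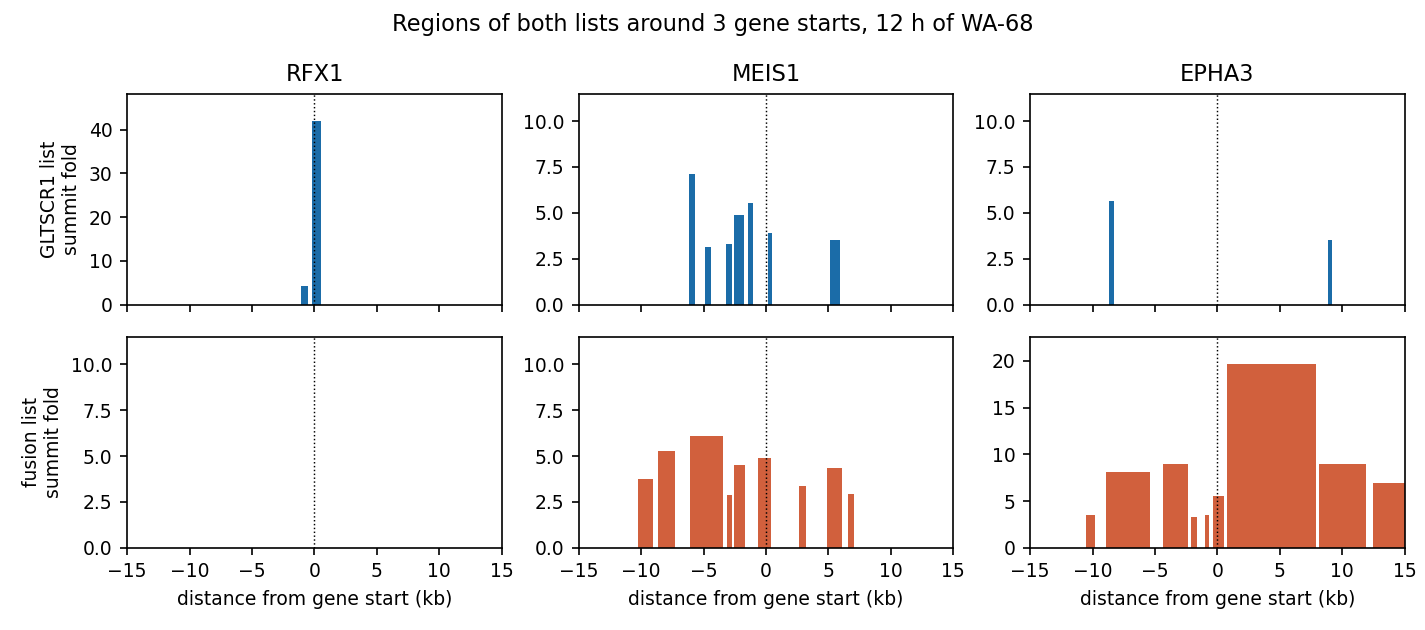
Regions of the GLTSCR1 list (blue, upper row) and the fusion list (red, lower row) within 15 kb of the start of RFX1, MEIS1 and EPHA3 at 12 h; bars span each region along the direction of transcription (kb from the start, dotted line), and their height is the summit fold, on axes that differ between panels. RFX1 had a GLTSCR1 region of fold 42.0 at its start and no fusion region, and MEIS1 had 7 GLTSCR1 and 9 fusion regions. EPHA3 had 9 fusion regions, up to fold 19.6, and GLTSCR1 regions of fold 5.64 and 3.52 inside fusion regions away from the start.

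The map of 3 gene starts shows these patterns. At RFX1 the strongest GLTSCR1 summit lay 121 bp past the start, a weaker GLTSCR1 region (fold 4.31) had its summit 789 bp before it, and no fusion region lay within 15 kb. Around the MEIS1 start, 7 narrow GLTSCR1 regions, with folds up to 7.14, lay among 9 fusion regions with folds up to 6.10, and all but 1 of the 7 overlapped a fusion region. At EPHA3, 9 fusion regions ran across the window, the strongest with its summit 3035 bp past the start, while the 2 GLTSCR1 regions lay over 8 kb to either side. Each of these GLTSCR1 regions lay inside a fusion region.

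Genes of the complexes themselves differed. BICRA, which encodes GLTSCR1, had GLTSCR1 alone at 12 h with a fold of 5.21 and a call in no other list. BICRAL, its paralogue, had GLTSCR1 alone with 6.73 at 12 h and a GLTSCR1 call in all 5 lists. SS18 had both, with 9.63 for GLTSCR1 and 4.50 for the fusion. BRD9 had the fusion alone, with 4.50 at 12 h; GLTSCR1 was called there in DMSO alone (4.41) and the fusion in all 4 of its lists. SSX1 and SSX2 had no call in any list.

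Gene lists, written from general knowledge with earlier results of these data known, separated into those with more genes of GLTSCR1 alone (10 lists) and those with more genes of the fusion alone (7 lists). These 17 lists held 656 genes, with no gene in several lists, and a family named below covers its listed members only. Among all genes, GLTSCR1 alone made up 17%, both 9.56% and the fusion alone 9.01%, and the counts below are to be read beside these shares. Neighbours in a gene cluster may lie under the same region, which makes their calls dependent. Where called, the median fold over all genes was 5.28 for GLTSCR1 and 4.55 for the fusion.

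**Figure D4:**
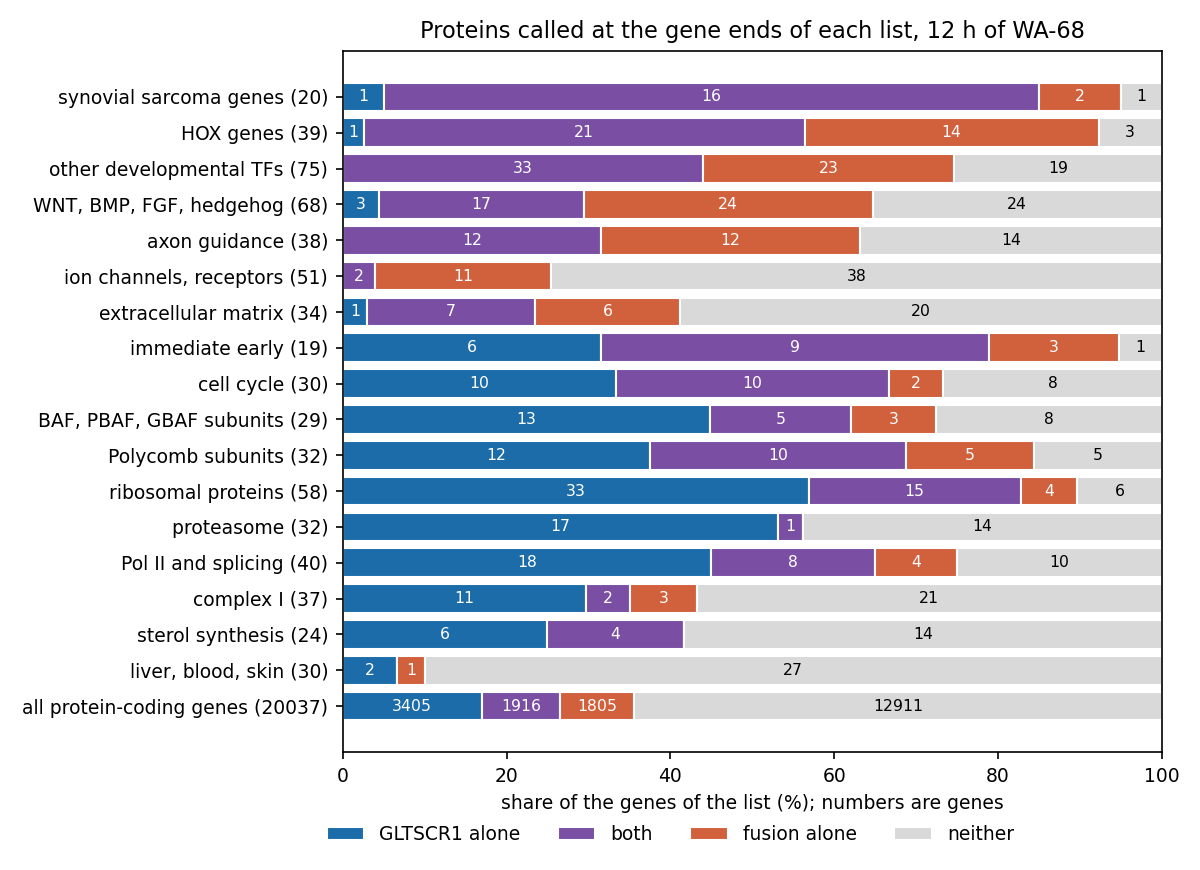
Genes of each list by the proteins called within 1 kb of their ends at 12 h, as a share of the list (%), with the number of genes in each bar and of each list in brackets; blue, GLTSCR1 alone, purple, both, red, the fusion alone, and grey, neither. In the 7 lists at the top, from synovial sarcoma genes to extracellular matrix, more genes had the fusion alone than GLTSCR1 alone, and in the next 9 lists and the liver, blood and skin genes more had GLTSCR1 alone.

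Genes tied to the fusion or used to diagnose synovial sarcoma carried both proteins in most cases. Of 20, 1 had GLTSCR1 alone, 16 both, 2 the fusion alone and 1 neither. PRAME, a cancer-testis antigen gene, had GLTSCR1 alone with 13.8. With both were PAX3, a neural crest factor gene, with a GLTSCR1 fold of 6.28 and a fusion fold of 8.72, and the anti-apoptotic gene BCL2 with 8.13 and 5.74. TLE1, the diagnostic corepressor gene, had 4.35 and 5.09. With windows of 3 kb, 1 gene had GLTSCR1 alone and 1 the fusion alone. FGFR2 and FGF9, a receptor and a ligand of the FGF pathway, had the fusion alone with 5.59 and 3.95. Median folds in the list were 5.37 for GLTSCR1 and 6.03 for the fusion. Genes of liver, blood and skin cells, which such a line should not use, were without either protein in 27 of 30 cases; APOA1 and CD8A had GLTSCR1 alone and HBA1 the fusion alone.

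HOX genes, which set position along the body axis, had GLTSCR1 alone at 1 of 39, both proteins at 21, the fusion alone at 14 and neither at 3. At gene starts only, both were at 5 HOX genes and the fusion alone at 13, so the count of both depended on the windows. By cluster, only the windows at both ends were counted, and there the clusters were unlike. In HOXB, 8 of 10 genes had both and none the fusion alone, and in HOXC 8 of 9 had both and 1 the fusion alone. In HOXA 3 of 11 had both and 8 the fusion alone, and in HOXD 2 of 9 had both and 5 the fusion alone. HOXB13 had GLTSCR1 alone, with 4.71, and no fusion call in any list. HOXA9 had a fusion fold of 13.9 and HOXD11 of 9.86, both without GLTSCR1 at their ends at 12 h. A GLTSCR1 region overlapped the HOXA9 fusion region outside the window. The median fusion fold at called HOX genes was 7.57.

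Other developmental transcription factor genes had GLTSCR1 alone at 0 of 75, both proteins at 33, the fusion alone at 23 and neither at 19. At gene starts only, both were at 19 of these genes and the fusion alone at 21. Windows of 500 bp gave 21 with both and 33 with the fusion alone. Both were at MEIS1, IRX3, FOXC1 and DLX1 among others, and the fusion alone at PAX6, IRX2 (13.4), GATA2 and OLIG2. No GLTSCR1 list had a call at the ends of IRX2, and all 4 fusion lists had one. The median fusion fold in the list was 7.5, against 4.55 over all genes called.

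Ligands, receptors and antagonists of the WNT, BMP, FGF and hedgehog pathways had GLTSCR1 alone at 3 of 68, both at 17, the fusion alone at 24 and neither at 24. BMPR2, the type II BMP receptor gene, and FZD2, a WNT receptor gene, had GLTSCR1 alone with 9.61 and 7.54. Among ligand genes, both proteins were at 1 of 18 WNT ligands, 2 of 8 BMP and GDF ligands, 2 of 7 FGF ligands and 0 of 3 hedgehog ligands, and the fusion alone was at 9, 5, 2 and 3 of these. WNT16 had a fusion fold of 10.6. Among receptor genes, both were at 4 of 8 Frizzled receptors, 1 of 3 BMP receptors, 2 of 3 FGF receptors and 4 of 7 hedgehog receptors and effectors, and the fusion alone was at 1, 1, 0 and 1 of these. The receptor gene FGFR2 and the ligand gene FGF9, which had the fusion alone, were counted with the synovial sarcoma genes and not here. HHIP, which encodes a decoy receptor for hedgehog, had a GLTSCR1 fold of 11.3 and a fusion fold of 10.2, and the ligand gene FGF8 had 15.7 and 8.10. WNT antagonists of the DKK, SFRP and WIF families had neither protein at 7 of 8.

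Axon guidance genes had GLTSCR1 alone at 0 of 38, both at 12, the fusion alone at 12 and neither at 14. Of 5 listed ephrin genes 4 had both, among them EFNA5 with 8.32 for GLTSCR1 and 8.78 for the fusion. Of 6 listed Eph receptor genes, 2 had both and 3 the fusion alone, among them EPHA3 and EPHB2 (8.87). Over all genes, the Eph receptor genes EPHA4, EPHA7, EPHB3 and EPHB4 had both. EPHA3, EPHA5 and EPHB2 had the fusion alone, and EPHA2, outside this list, had GLTSCR1 alone. The ephrin gene EFNA2, also outside this list, had the fusion alone. SEMA3A, a secreted guidance cue gene, had 7.06 and 9.73. Neuronal ion channel and transmitter receptor genes had GLTSCR1 alone at 0 of 51, both at 2, the fusion alone at 11 and neither at 38. GRIN1, the shared subunit gene of NMDA receptors, had a fusion fold of 13.6 and the cannabinoid receptor gene CNR1 12.5. Matrix genes had GLTSCR1 alone at 1 of 34, both at 7, the fusion alone at 6 and neither at 20. LUM, which encodes the proteoglycan lumican, had a GLTSCR1 fold of 28.7 and a fusion fold of 6.46, and the type I collagen gene COL1A1 had 11.4 and 4.97. COL9A1 had the fusion alone with 9.12.

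Genes that every cell uses stood on the other side. Of 58 genes of cytosolic ribosomal proteins, 33 had GLTSCR1 alone, 15 both, 4 the fusion alone and 6 neither. RPL23 had 12.2 and RPS27A 10.9, both GLTSCR1 alone, and RPS9 had 6.60 for GLTSCR1 and 4.95 for the fusion. The large and small subunits did not part: 21 of 34 and 12 of 24 genes had GLTSCR1 alone. Of 32 proteasome genes, 17 had GLTSCR1 alone, 1 both and 0 the fusion alone. GLTSCR1 alone was at 7 of 14 core subunit genes, 5 of 6 ATPase genes of the cap and 5 of 12 of its other genes. PSMB5, which encodes a catalytic core subunit, had 9.41 and PSMC6, a cap ATPase gene, 6.14. Of 40 genes of RNA polymerase II and the spliceosome, 18 had GLTSCR1 alone, 8 both and 4 the fusion alone. SNRPA, of the U1 particle, had 13.9, and the splicing factor gene SRSF7 13.1. POLR2A, the gene of the largest polymerase subunit, had 15.9 for GLTSCR1 and 5.76 for the fusion.

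Of 37 nuclear genes of mitochondrial complex I, 11 had GLTSCR1 alone, 2 both, 3 the fusion alone and 21 neither. NDUFB11 had 7.46 for GLTSCR1 and NDUFS7 5.74 for the fusion. Of 24 genes of sterol synthesis and its control, 6 had GLTSCR1 alone, 4 both and 0 the fusion alone. The sterol enzyme gene NSDHL had GLTSCR1 alone with 9.34.

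Regulators of growth and chromatin were mixed. Of 19 immediate early genes, which respond within minutes to growth signals, 6 had GLTSCR1 alone, 9 both, 3 the fusion alone and 1 neither. FOS and JUND, 2 AP-1 genes, had GLTSCR1 alone at 12 h with 22.2 and 20.3. The fusion was called at both genes in every other fusion list. Its folds in DMSO and after 24 and 48 h were 3.73, 4.06 and 4.88 at FOS and 4.70, 3.61 and 5.36 at JUND. JUN and FOSL1, of the same family, had the fusion alone at 12 h with 6.43 and 7.66. JUN had no call in any other list, and FOSL1 had a fusion call in every fusion list and no GLTSCR1 call. KLF6, a zinc-finger factor gene, had 9.67 and 6.66. Of 30 genes of cyclins, their kinases and inhibitors, 10 had GLTSCR1 alone, 10 both and 2 the fusion alone. The cyclin genes CCNE1 and CCNB1 had GLTSCR1 alone with 7.91 and 7.53, with no fusion call in any list. CDK6 had 13.7 and 5.68, and the CDK inhibitor genes CDKN1B and CDKN2C had the fusion alone with 4.81 and 4.50, each after a GLTSCR1 call in DMSO.

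Of 29 genes of BAF, PBAF and GBAF subunits, 13 had GLTSCR1 alone, 5 both, 3 the fusion alone and 8 neither. ARID1B and SMARCE1, subunits of BAF, had GLTSCR1 alone with 15.1 and 9.74. ARID1A had 11 for GLTSCR1 and 5.94 for the fusion, and DPF2, a BAF subunit gene, had the fusion alone with 4.95 and no call in any other list. Of 32 Polycomb subunit genes, 12 had GLTSCR1 alone, 10 both, 5 the fusion alone and 5 neither. The core genes EED, SUZ12 and RNF2 had GLTSCR1 alone, and EZH2 and BMI1 both. CBX8, which encodes a reader of the H3K27 methyl mark, had 9.32 and 10.2, and BCOR, of a variant Polycomb complex, had 19.9 and 5.96.

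Promoter composition differed between the classes of genes. Sequences were matched for 2868 of the 3405 genes with GLTSCR1 alone, 1496 of the 1916 with both, 1348 of the 1805 with the fusion alone and 10131 of the 12911 with neither. The median G and C content was 64.3% with GLTSCR1 alone, 67.0% with both, 69.0% with the fusion alone and 60.7% with neither, and 62.7% over all 15843. The ratio of observed to expected CpG had medians of 0.861, 0.856, 0.821 and 0.669 in the same order of classes.

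Motifs were searched on both strands, and matches of different motifs may overlap. The ETS core CCGGAAG was in 22% (20.5 to 23.6) of promoters with GLTSCR1 alone, 13.1% (11.4 to 14.9) of those with both, 11.2% (9.57 to 13.0) of those with the fusion alone and 14.2% of all. The palindromic NRF1 motif was in 3.07% (2.47 to 3.77) with GLTSCR1 alone, 1.47% with both, 1.48% with the fusion alone and 1.75% of all. The CRE TGACGTCA, the site of CREB-family factors, was in 4.22% (3.51 to 5.02), 3.21%, 2.52% and 2.59% in the same order. CCAAT was in 39.1% with GLTSCR1 alone, 35.8% with both, 31.7% with the fusion alone and 36.4% of all. The GC box GGGCGG ran the other way, with 69.6% for GLTSCR1 alone, 71.8% for both, 74.9% for the fusion alone and 58.5% of all. TATAAA was in 5.54% with GLTSCR1 alone, 10.3% with both, 5.79% with the fusion alone and 9.63% of all. Where a gene was classed by regions over the promoter itself, TATAAA was in 10.2% (7.88 to 12.8) with both and 8.60% (6.88 to 10.6) with the fusion alone, a gap within counting error. The E box CACGTG was in 11.3%, 11.7% and 10.8% of the 3 classes and 8.88% of all, and the AP-1 site TGACTCA, with its reverse complement TGAGTCA, in 2.58%, 3.14% and 2.52% and 3.66% of all, so neither set the 3 classes apart beyond counting error. The part of G and C content in these shares was not tested.

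Away from gene ends, the strongest GLTSCR1 region alone was also the strongest of its whole list, with a fold of 53.3 at chr4:112031559-112032250, 113 kb from FAM241A. GLTSCR1 was called there in all 5 of its lists and the fusion after 48 h alone. The next, at chr16:72502090-72502581 with a fold of 50.1, lay 252 kb from PMFBP1 and had GLTSCR1 in all 5 lists and no fusion call. The strongest fusion region alone, within ADAP1 at chr7:934304-938094, had a fold of 38.9, with GLTSCR1 calls in DMSO and after 96 h. Fusion regions at chr16:87162555-87163361 (28.6) and within ATP11A at chr13:112786697-112791077 (20.0) had no GLTSCR1 call in any list and a fusion call in all 4. The leading shared regions were called in all 9 lists: chr2:176729549-176730881, 392 kb from MTX2, with 26.7 for GLTSCR1 and 16.2 for the fusion, a region within the calcium channel subunit gene CACNA2D1 at chr7:82044469-82045057 with 18.4 and 16.1, and a region within PLCH2 at chr1:2459055-2460120 with 39.6 and 13.1.

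In every other list of the same antibody, regions alone at 12 h were called again less often than shared ones. Of GLTSCR1 regions alone at 12 h, GLTSCR1 was called over 64.9% in DMSO, 49.4% after 24 h, 37.4% after 48 h and 47.2% after 96 h. For shared GLTSCR1 regions these shares were 73.1%, 65.2%, 64.6% and 69.3%. Of fusion regions alone, the fusion was called over 58.2% in DMSO, 54.5% after 24 h and 59.0% after 48 h, and of shared ones over 81.7%, 75.3% and 79.0%. The DMSO difference, alone minus shared, was -8.17 points for GLTSCR1 and -23.5 for the fusion; within deciles of width it was -0.754 and -7.16 points, so most of it moved with width.

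Each antibody's regions alone at 12 h were seldom called by the other antibody at other times. The fusion was called over 17.9% of GLTSCR1 regions alone in DMSO, 10.1% after 24 h and 14.1% after 48 h, against 85.5%, 79.9% and 83.8% of shared ones. GLTSCR1 was called over 13.3% of fusion regions alone in DMSO, 7.36% after 24 h, 7.10% after 48 h and 8.37% after 96 h, against 79.6%, 71.4%, 70.6% and 74.3% of shared ones.

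**Figure D5:**
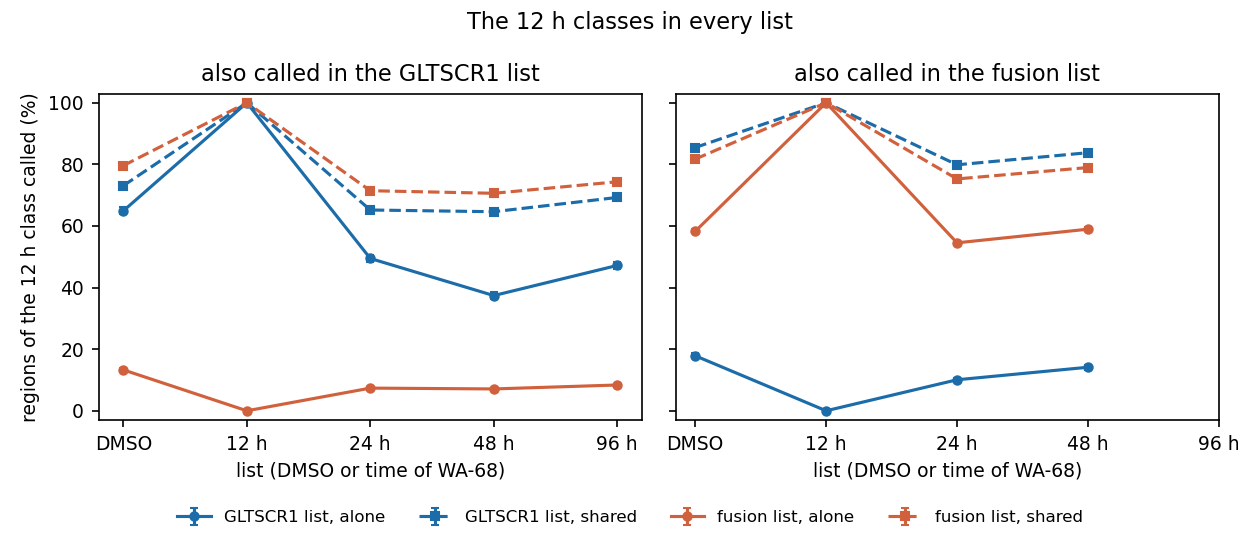
Share of the regions of each 12 h class (%) also called in each GLTSCR1 list (left) and each fusion list (right), over DMSO and hours of WA-68; solid lines, regions alone, dashed lines, shared regions, blue, GLTSCR1 list, and red, fusion list. The values at 12 h are 100 or 0 by the definition of the classes, and at the other times shared regions stayed above regions alone, with 37.4% to 64.9% of GLTSCR1 regions alone called again by GLTSCR1.

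Most shared places were shared in DMSO too. Of the 8840 shared GLTSCR1 regions, 64.9% had both proteins in DMSO, 8.20% GLTSCR1 alone, 20.6% the fusion alone and 6.33% neither. Those with the fusion alone in DMSO numbered 1820, and GLTSCR1 was called at them as well at 12 h. Of the GLTSCR1 regions alone at 12 h, 15.7% had both in DMSO, 49.2% GLTSCR1 alone, 2.13% the fusion alone and 33.0% neither. Of the fusion regions alone, 11.4% had both in DMSO, 1.88% GLTSCR1 alone, 46.8% the fusion alone and 39.9% neither.

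Followed forward, the places shared in DMSO split at 12 h. Of the 10701 GLTSCR1 regions shared in DMSO, 47.9% had both proteins at 12 h, 9.63% GLTSCR1 alone, 34.2% the fusion alone (3664 regions) and 8.19% neither. Of the 9024 fusion regions shared in DMSO, 51.0% had both, 14.6% GLTSCR1 alone, 24.5% the fusion alone and 9.92% neither. GLTSCR1 regions alone in DMSO had GLTSCR1 alone at 12 h in 44.0% and neither in 42.0%, and fusion regions alone in DMSO had the fusion alone at 12 h in 64.7%.

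Genes classed by the regions at their ends were followed over the same step. These counts are of genes, with no overlap between the proteins needed, so they are not set against the shares of regions above. Of the 2591 genes with both proteins in DMSO, 1202 had both at 12 h (46.4%), 711 GLTSCR1 alone (27.4%), 433 the fusion alone (16.7%) and 245 neither. Of the 3643 genes with GLTSCR1 alone in DMSO, 1977 had GLTSCR1 alone at 12 h, 430 both, 128 the fusion alone and 1108 neither. Of the 1281 with the fusion alone in DMSO, 720 had the fusion alone at 12 h, 124 both, 53 GLTSCR1 alone and 384 neither. A call lost or gained between 2 single libraries can follow their depth, which the lists do not give.

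The place of the classes changed over the series. The share at gene ends, alone minus shared, was 28.7 points in DMSO, 30.4 at 12 h, 14.6 after 24 h and 6.16 after 48 h in the GLTSCR1 lists, and -16.8, -13.0, -1.59 and -5.83 points in the fusion lists. Genes with GLTSCR1 alone numbered 3643 in DMSO, 3405 at 12 h, 1773 after 24 h and 874 after 48 h, and those with the fusion alone 1281, 1805, 2157 and 2376. Proteasome genes with GLTSCR1 alone numbered 11 in DMSO, 17 at 12 h, 5 after 24 h and 2 after 48 h, and ribosomal protein genes 22, 33, 20 and 7. In both lists the 12 h count was above that of DMSO, while the count over all genes was below it. Over the same step, genes with both proteins fell from 4 to 1 for the proteasome and from 23 to 15 for the ribosome. Over all genes they fell from 2591 to 1916. A gene that keeps GLTSCR1 and loses its fusion call passes into the GLTSCR1 alone count, so a higher count is not a gain of GLTSCR1 by itself. Genes with the fusion alone stayed at 0 for the proteasome and 4 for the ribosome. Those with neither fell from 17 to 14 and from 9 to 6, so more genes of each list had a GLTSCR1 call at 12 h. Over all genes, those with neither rose from 12522 to 12911. The cause was not tested. Developmental transcription factor genes with both numbered 46 in DMSO, 33 at 12 h, 31 after 24 h and 34 after 48 h, and those with the fusion alone 17, 23, 31 and 27. HOX genes with both numbered 24 in DMSO, 21 at 12 h and 22 at 24 and 48 h.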

How the data were processed

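Each GLTSCR1 and fusion library has its own peak list, with peak names that carry the name of that library in the deposited files. Per the submitters' processing notes the build was GRCh38 (hg38) and the tools included MACS2, BWA, Picard, SAMtools, deepTools, bcl2fastq, FastQC, cutadapt and Trim Galore, with no versions or settings given in the sources used here. For each peak the authors deposited the summit's fold enrichment, a linear ratio to local background. They also deposited −log10 values of p and of q. The score in the deposited lists was not used. The lowest deposited −log10 q was 3.00.

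Entries with the same coordinates (24671 entries for GLTSCR1 and 63781 for the fusion at 12 h) were joined into regions that carry the values of the strongest summit, and 25 GLTSCR1 and 74 fusion regions on other contigs were left out. Overlaps were computed with Python 3.11.15, numpy 2.4.6, pandas 2.3.3 and scipy 1.17.1; the code was tested on simulated data and gave the same overlaps as bedtools 2.31.1. Gene spans, names and promoter sequences came from RefSeq (GRCh38.p14), with 20037 protein-coding genes. Gene ends were windows of 1 kb to either side of the start and of the end of a span, so downstream ends are included. Near-identical copies, such as histone genes, can share reads, and how the authors placed such reads is not given in the sources used here.

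Each group held 1 library and the labels name no replicates, so shares, medians and counts are given without tests. Differences within deciles were averaged over the regions of the list. The members and gene lists were chosen with earlier results of these data known. The text names the 8 genes and 3 regions away from gene ends with the highest fold in each class (for both proteins, the highest mean percentile rank), up to 2 genes of each list and class by the same rank, and BRD9, BICRA, BICRAL, SS18, SSX1 and SSX2; other genes, and regions named for their width or for the number of regions they hold, were chosen after their values were seen. The text leaves out some genes and regions that this rule picks. Alternatives were other rules of overlap, thresholds, list lengths and windows, and regions over the promoter itself for the promoter values.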

Additional observations from a re-analysis of the deposited data

How the results depend on the processing

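Overlap of at least 50% of the shorter region gave shared portions of 51.8% for GLTSCR1 and 22.2% for the fusion, any summits within 250 bp 45.5% and 20.5%, and strongest summits within 250 bp 22.4% and 12.5%, where a region with several summits can fail because another was strongest. Windows of 500 bp around the strongest summit, an alternative added after seeing the data, gave 32.7% and 18.2%. A −log10 q of at least 5 gave 50.2% for GLTSCR1 when set in both lists, and 51.1% and 21.3% when set in the other list alone; lists of equal length gave 45.9% and 32.7%, and merging within 500 bp 54.4% and 29.8%. The share at gene ends, for GLTSCR1 alone and shared, then the fusion alone and shared, was 45.0%, 15.7%, 9.18% and 21.9% with windows of 500 bp, 55.8%, 26.6%, 20.7% and 32.9% with 3 kb, and 41.8%, 13.6%, 7.90% and 18.2% at starts only; the stricter q gave 17.9% and 24.0% for the shared classes. Alone minus shared, it was 33.6 (GLTSCR1) and -18.7 points (fusion) within width deciles, 28.3 and -10.3 at starts only, and for the fusion -18.3 within fold deciles and -10.9 at the stricter q. The share called by the same antibody in DMSO, at an overlap of 50%, was 61.9% of GLTSCR1 regions alone and 68.1% of shared ones (-6.15 points), and 50.2% of fusion regions alone and 77.9% of shared ones (-27.7 points); within width deciles the differences were -0.754 and -7.16 points. The cause of these shifts was not tested. None of the directions reversed, counts of genes by class stayed within 1.5 times, and no list reversed its order of GLTSCR1 alone against the fusion alone in 68 checks, though synovial sarcoma genes came to a tie with windows of 3 kb and 35 of 204 single list counts moved by more than 1.5 times. With genes classed by regions over the promoter itself, 24 of 30 promoter values stayed within the interval of their share or the quartiles of their median. No paired analysis was possible because each group held 1 library. With 1 library a side and unknown depth, the counts cannot separate the protein from the library, and a missing call is not an absence of the protein. The antibodies differ too, so the unequal lengths of the lists say nothing of how much of each protein was bound.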
